A study of Mus musculus with 6 samples.

Results

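Alas2, Hbb-bt, Ppbp and Ms4a4a are 4 genes known from blood cells that were picked up in pieces of mouse leg muscle, each through 1 array feature. They are 4 of the 134 named features in the authors' deposited list of 470 features for refed against fasted muscle, and of 41345 features in all. They were taken by symbol because they belong to red cells, platelets and immune cells. The list had been selected on the difference between refed and fasted values of these same arrays, so the genes were chosen by that difference in part; it is described here and was not tested.

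The muscle was tibialis anterior from male C57Bl/6 mice aged 18 weeks, all of them without food from 1800 hr onwards. The fasted group (3 arrays, replicates 1, 3 and 5) stayed without food until death. The refed group (3 arrays, replicates 7, 9 and 11) was given food for 30 minutes from about 0800 hr and then shared a further 4 hr without food with the other mice. No gene was altered in either group. The muscle was frozen after removal, and RNA came from whole pieces of about 25 mg, so it also holds RNA of blood left in the vessels and of cells that live between the fibres. Fewer cells of a type and less RNA per cell cannot be told apart in such pieces.

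Red cells lose their nucleus as they mature, and the youngest ones in the blood, the reticulocytes, still carry messenger RNA for globin and for haem synthesis. Platelets are fragments of megakaryocytes and carry RNA from them. Macrophages are resident in muscle and can also arrive from the blood as monocytes. Transcripts of these cells are therefore found in a muscle piece beside those of the fibres, and their level follows how much blood and how many such cells the piece holds as well as what these cells express.

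The 6 arrays were close to each other, with column medians between 5.02 and 5.06 on the log2 scale. Pearson's r across features was 0.978 to 0.982 for arrays of the same group and 0.979 to 0.983 for arrays of different groups. By this measure arrays of different groups were as alike as arrays of the same group. The features are not independent replicates. Of the 12 genes fixed as skeletal muscle markers, Trim63 and Myod1 have a named feature. Trim63, a ubiquitin ligase of the sarcomere, was brighter than at least 98.98% of the features on every array, and Myod1, the myogenic transcription factor, than at least 79.1%. In refed muscle Trim63 was 1.58-fold lower and Myod1 1.55-fold higher, each without overlap of the groups, and both come from the authors' list. The other muscle markers carry no name in the sources used here.

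The stretch before each gene's start is shown with the regulatory words in it. Any link between these words and how the 4 genes varied was not tested. The RefSeq table of build GRCm38.p6 held all 4 genes. The 250 bases before the start lie at chrX:150547167-150547416 (plus strand) for Alas2, chr7:103813924-103814173 (minus strand) for Hbb-bt, chr5:90768268-90768517 (plus strand) for Ppbp and chr19:11375238-11375487 (plus strand) for Ms4a4a. Each is printed from 5′ to 3′ on the strand of its gene, and capitals mark the words searched on both strands.
Alas2: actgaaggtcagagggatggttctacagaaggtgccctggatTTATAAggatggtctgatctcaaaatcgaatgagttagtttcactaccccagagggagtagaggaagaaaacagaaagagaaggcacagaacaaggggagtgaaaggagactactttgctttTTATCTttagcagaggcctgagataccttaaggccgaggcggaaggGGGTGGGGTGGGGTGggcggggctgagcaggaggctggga
Hbb-bt: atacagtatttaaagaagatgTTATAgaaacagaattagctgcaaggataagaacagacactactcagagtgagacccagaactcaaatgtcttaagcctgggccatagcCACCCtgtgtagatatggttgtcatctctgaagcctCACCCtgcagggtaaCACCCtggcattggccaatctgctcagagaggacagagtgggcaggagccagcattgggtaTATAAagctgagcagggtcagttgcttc
Ppbp: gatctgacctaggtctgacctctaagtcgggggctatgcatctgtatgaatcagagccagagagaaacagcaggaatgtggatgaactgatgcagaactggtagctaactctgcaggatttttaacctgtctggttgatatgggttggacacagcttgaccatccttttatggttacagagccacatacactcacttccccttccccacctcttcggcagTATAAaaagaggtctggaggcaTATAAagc
Ms4a4a: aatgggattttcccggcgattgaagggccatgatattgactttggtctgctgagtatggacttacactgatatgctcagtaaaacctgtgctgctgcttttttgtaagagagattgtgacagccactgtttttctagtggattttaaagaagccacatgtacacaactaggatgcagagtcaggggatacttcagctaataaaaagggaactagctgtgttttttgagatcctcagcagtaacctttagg

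The words were GATAA or GATAG with an A or a T before it, which the erythroid factor GATA1 is known to read, CACCC, which the erythroid factor KLF1 reads, and TATAA, the core of the TATA box. CACCC occurred 3 times in the Alas2 window, all on the opposite strand and 26 to 40 bases before the start. It occurred 3 times in the Hbb-bt window, at 85 to 140 bases before the start, and it was not found in the windows of Ppbp and Ms4a4a. At least 3 copies, the number seen in Alas2 and Hbb-bt, were found in 6.92% of the 32851 windows of the same length in the table. At least 1 copy was found in 52.0%. A GATA word was found once among the 4 windows, in Alas2 at 81 to 86 bases before the start, while 26.5% of all windows hold one. TATAA ended 24 bases before the start in Hbb-bt and 4 and 26 bases before it in Ppbp, and Ms4a4a had none. Hbb-bt also held it on the opposite strand, 225 to 229 bases before the start. Of all windows 22.8% hold TATAA. In Alas2 its matches on both strands overlap in one stretch, TTATAA. These matches describe letters in a short window and are not binding sites.

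Alas2 is the erythroid form of the enzyme that makes aminolevulinic acid, the first step of haem synthesis (chromosome X, band F3 in the authors' list). Its log2 signal was 7.54, 7.93 and 7.04 in fasted replicates 1, 3 and 5, and 6.78, 6.27 and 6.90 in refed replicates 7, 9 and 11. All 3 refed values lay below the 3 fasted ones, with fasted replicate 3 highest and refed replicate 9 lowest. The means were 7.51 ± 0.44 in fasted and 6.65 ± 0.33 in refed muscle (SD, n = 3), a difference of -0.85 (SE 0.32), or 1.81-fold lower in refed muscle. The spread within the fasted group alone, 0.89 from lowest to highest, was as wide as this difference.

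Hbb-bt encodes a beta chain of adult haemoglobin, the t chain of the haplotype carried by C57BL/6 mice (chromosome 7). The list's annotation text for this feature also holds an accession of Hbb-b2, a beta globin gene of another mouse haplotype, so beta globin genes that share sequence may be read together by it. Its log2 signal was 6.78, 7.28 and 6.36 in fasted replicates 1, 3 and 5, and 6.21, 5.55 and 6.35 in refed replicates 7, 9 and 11. The groups all but touched: the lowest fasted array, replicate 5, was 0.00087 above the highest refed array, replicate 11, and after quantile normalization they overlapped. The means were 6.80 ± 0.46 in fasted and 6.04 ± 0.43 in refed muscle (SD, n = 3), a difference of -0.77 (SE 0.37), or 1.70-fold lower. As for Alas2, fasted replicate 3 was highest and refed replicate 9 lowest.

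Ppbp encodes pro-platelet basic protein, a CXC chemokine precursor stored in the alpha granules of platelets, whose cleaved form draws neutrophils (chromosome 5, band E1). Its log2 signal was 7.23, 7.15 and 6.66 in fasted replicates 1, 3 and 5, and 6.25, 6.18 and 6.57 in refed replicates 7, 9 and 11. Fasted replicate 5 was again the lowest of its group and refed replicate 11 the highest of its own, 0.09 apart, without overlap of the groups. The means were 7.01 ± 0.31 and 6.33 ± 0.20 (SD, n = 3), a difference of -0.68 (SE 0.21), or 1.597-fold lower in refed muscle.

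Ms4a4a encodes a membrane protein of the MS4A family, to which the B cell antigen CD20 belongs, and is known from macrophages (chromosome 19). Its log2 signal was 6.17, 5.49 and 5.89 in fasted replicates 1, 3 and 5, and 5.22, 4.83 and 5.16 in refed replicates 7, 9 and 11. Here fasted replicate 3, the highest array for the red cell genes, was the lowest of the fasted group, and the gap to the highest refed array was 0.27. The means were 5.85 ± 0.34 and 5.07 ± 0.21 (SD, n = 3), a difference of -0.78 (SE 0.23), or 1.72-fold lower in refed muscle.

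**Figure D1:**
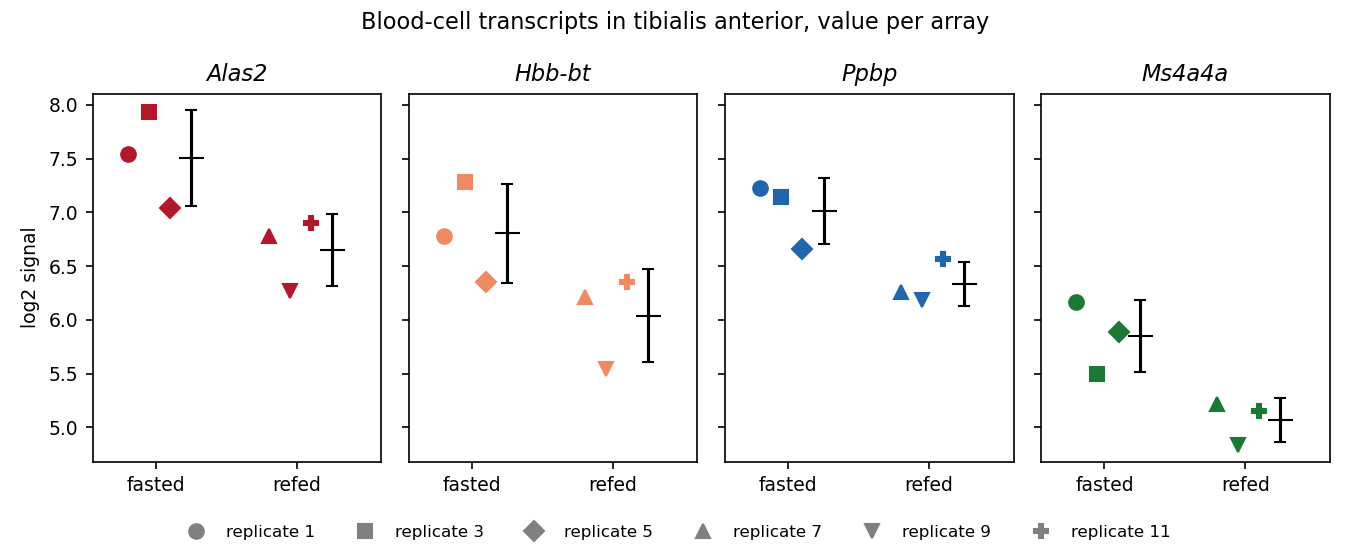
Log2 signal of Alas2, Hbb-bt, Ppbp and Ms4a4a in each of the 3 fasted and 3 refed arrays; each marker shape is 1 replicate, and the black bar with whiskers is the mean and SD of the group (n = 3). Refed values lie below fasted values in every panel, by as little as 0.00087 for Hbb-bt, and fasted replicate 3 is highest for the red cell genes but lowest of its group for Ms4a4a.

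All 4 genes had refed values below every fasted value. Over all features 5.02% were separated in that direction and 9.55% in either direction. A difference of at least 1.5-fold toward lower values was found for 2.12% of all features, and together with separated groups for 0.955%. The median difference of the 4 genes was -0.77, and that of all features 0.00052. These shares give the background; the list that supplied the genes was selected for such differences, and nothing is read from the count. With limma over all features, 0 of 41345 passed at a Benjamini-Hochberg adjusted p under 0.05, a percentage of 0, so none of the 4 genes passed. At an unadjusted p under 0.05 limma had 2009 features (4.86%), close to the share of 0.05 that this threshold passes where nothing differs. A model without variance moderation had 1851 at that level and 0 after adjustment. Among the features of the authors' deposited list, the smallest difference of the group means was 1.501-fold; Ppbp lay closest to it among the 4 genes, 0.09 on the log2 scale beyond 1.5-fold, and Alas2 farthest, at 0.27. By size of decrease Alas2, Ms4a4a, Hbb-bt and Ppbp held places 311, 423, 442 and 603 of all features.

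**Figure D2:**
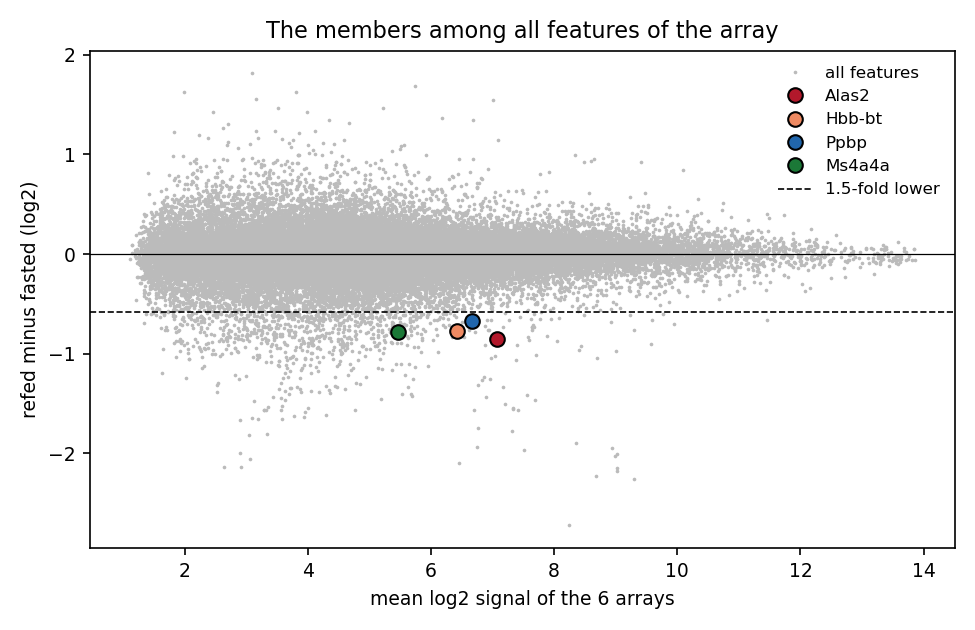
Difference of the group means (refed minus fasted, log2) of all 41345 features against their mean log2 signal over the 6 arrays; the 4 genes are the coloured points, and the dashed line marks 1.5-fold lower. The 4 genes lie between -0.68 and -0.85, below the dashed line, and 2.12% of all features lie at or beyond that line.

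None of the 4 features was among the dimmest of the array. Alas2 was brighter than 72.5% to 89.0% of the features over the 6 arrays, Hbb-bt than 60.9% to 83.5%, Ppbp than 71.4% to 83.6% and Ms4a4a than 45.3% to 70.9%. The red cell genes varied more from array to array than features of like brightness. The SD within groups was 0.39 for Alas2, and 95.7% of the 4125 features within 0.5 of its mean level had a smaller one, with a median of 0.149. For Hbb-bt it was 0.45, above that of 95.9% of 5290 such features. Ppbp (0.26) and Ms4a4a (0.28) had an SD above that of 82.7% and 78.2% of theirs.

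The variation left after each group's mean was removed is not the contrast on which the list was made. Alas2 and Hbb-bt shared it almost wholly. Their deviations were 0.43 and 0.48 in fasted replicate 3, -0.46 and -0.45 in fasted replicate 5, and -0.38 and -0.49 in refed replicate 9. Pearson's r of the deviations was 0.990 over the 6 arrays, which leave 4 free deviations, and it lay between 0.983 and 0.9999 when 1 array was left out at a time. Of the 41344 other features, 30 followed Alas2 more closely than Hbb-bt did. The arrays share RNA amount, labelling and normalization across features, so r describes these arrays and carries no p.

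Ppbp followed the red cell genes less closely, with r = 0.812 to Alas2 and 0.752 to Hbb-bt. Without fasted replicate 5, the lowest fasted array for all 3 genes, these were 0.557 and 0.551. There were 1899 features closer to Alas2 than Ppbp was, or 4.59% of the others.

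Ms4a4a had r = -0.065 to Alas2, -0.054 to Hbb-bt and 0.170 to Ppbp. Its deviation was -0.36 in fasted replicate 3, where those of Alas2, Hbb-bt and Ppbp were 0.43, 0.48 and 0.14. These values rest on single arrays. Without fasted replicate 3, r became 0.963 to Alas2, 0.954 to Hbb-bt and 0.707 to Ppbp. Without refed replicate 9 it became -0.532 to Alas2 and -0.630 to Hbb-bt, and to Ppbp it became -0.290 without fasted replicate 1 and 0.433 without fasted replicate 5. In refed replicate 9 all 4 genes were below the mean of their group, and in refed replicate 11 all 4 were above it. Whether Ms4a4a varies apart from the red cell genes was not tested.

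**Figure D3:**
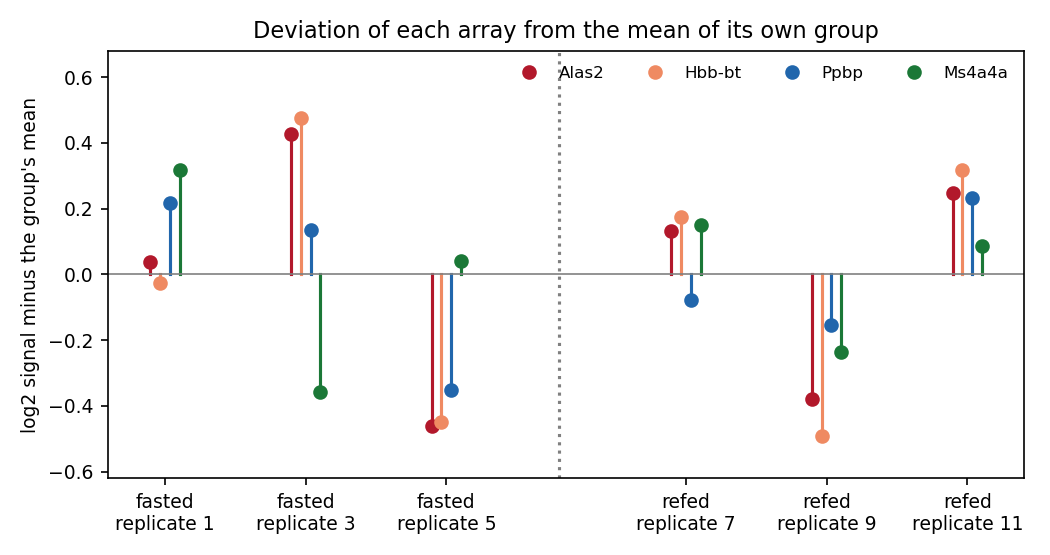
Log2 signal minus the mean of the array's own group, for the 4 genes in each array; fasted arrays are left and refed arrays right of the dotted line. Alas2 and Hbb-bt lie close together in all 6 arrays, and in fasted replicate 3 Ms4a4a lies at -0.36 while Alas2 lies at 0.43.

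Among the 60 named features left after predicted, clone, microRNA and small RNA names were set aside, the 3 most like each gene were identified by the same measure. For Alas2 they were Gabarapl1 (r = 0.999), Hbb-bt and Zfp932 (0.827), and for Hbb-bt Gabarapl1 (0.992), Alas2 and Oas1d (0.854). Gabarapl1, which encodes an ATG8 protein of the autophagosome, was the feature closest to Alas2 of all 41344 others, and r stayed between 0.9988 and 0.9999 when 1 array was left out. Its log2 signal was 10.33, 10.59 and 9.98 in fasted replicates 1, 3 and 5 and 9.70, 9.32 and 9.77 in refed replicates 7, 9 and 11, the same order of arrays as for Alas2. The groups did not overlap, and Gabarapl1 was 1.63-fold lower in refed muscle; its difference was part of the choice of the list as well.

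For Ppbp the nearest were Olfr1504 (r = 0.943), an olfactory receptor gene of very low signal, Trim63 (0.883) and Alas2. For Ms4a4a they were Gadd45g (0.953), a stress-response gene, Cebpd (0.949), a transcription factor of the C/EBP family that glucocorticoids induce, and Calr4 (0.907), a calreticulin relative of low signal. Cebpd and Gadd45g kept r of at least 0.936 and 0.907 to Ms4a4a when 1 array was left out. Their r to Alas2 over all arrays was 0.130 and -0.332. Like Ms4a4a, both were lowest of the fasted group in replicate 3, where Alas2 was highest. Their r to Alas2 may therefore rest on that array, and it was not followed with arrays left out. Cebpd was 7.72, 7.24 and 7.53 in fasted replicates 1, 3 and 5 and 6.55, 6.18 and 6.64 in refed replicates 7, 9 and 11. As for Ms4a4a, replicates 3 and 9 were the lowest of their groups. Over all features, 222 were closer to Ms4a4a than Cebpd was, 206 closer than Gadd45g and 573 closer than Calr4. For Ppbp, 389 were closer than Olfr1504 and 1079 closer than Trim63. For Alas2, 1661 were closer than Zfp932, and for Hbb-bt 1194 were closer than Oas1d.

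**Figure D4:**
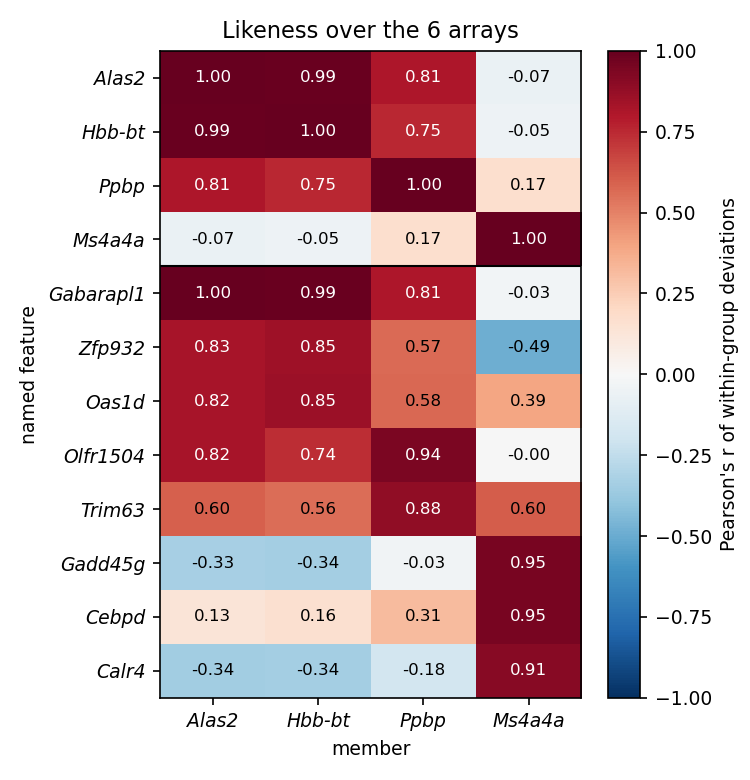
Pearson's r, over the 6 arrays, between the within-group deviations of each of the 4 genes (columns) and of the named features (rows); the 4 genes stand above the line and the features most like them below it. Gabarapl1 has an r of 0.999 to Alas2 and 0.992 to Hbb-bt, and Gadd45g and Cebpd have 0.953 and 0.949 to Ms4a4a.

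Features with a high r to Alas2 within the groups were not as a rule lower in refed muscle by much. Of the 41344 other features, 260 had r over 0.95 to Alas2, 245 to Hbb-bt, 328 to Ppbp and 218 to Ms4a4a, members included. With 4 free deviations unrelated features can reach such an r, and the number expected without a relation was not computed. Of 259 features with r over 0.95, members apart, 160 (61.8%) had a lower refed mean, against 49.9% of all features. Their median difference was -0.045, and 8 of them were at least 1.5-fold lower and 2 at least 1.5-fold higher. For Hbb-bt 155 of 244 (63.5%) were lower, with a median of -0.060. For Ppbp these were 159 of 328 (48.5%) and for Ms4a4a 104 of 218 (47.7%). Among features above the median level, where 49.1% of all were lower, the shares were 64.4% for Alas2 (67 of 104), 69.9% for Hbb-bt (72 of 103), 58.3% for Ppbp (74 of 127) and 49.0% for Ms4a4a (50 of 102). With r over 0.99 at all levels, 17 of 30 were lower for Alas2, 12 of 20 for Hbb-bt, 11 of 30 for Ppbp and 13 of 26 for Ms4a4a, so the share depends on which features are counted. The features chosen for Alas2 and Hbb-bt overlap, and no feature here is independent of the arrays it shares with the others.

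Most other genes of these cells could not be followed, because a gene name is given here only within the authors' list. Of the 17 red cell genes fixed for this purpose, Alas2 and Hbb-bt have a named feature, and of 13 genes of haem synthesis Alas2 alone. The platelet list has 1 of 13 (Ppbp) and the list of macrophages and monocytes 1 of 21 (Ms4a4a). These are the same 4 genes, all lower in refed muscle and chosen in part by that difference. The lists therefore add nothing to their direction. No gene of the lists for neutrophils (10 genes), B cells and plasma cells (10) or T and NK cells (12) has one. Of 10 endothelial genes Aplnr, the apelin receptor, has one, and it was 1.70-fold higher in refed muscle, at 7.19 ± 0.29 against 6.42 ± 0.19 (log2 signal, SD, n = 3). Since no feature of the array passed the limma test at an adjusted p under 0.05, no list could hold one that did. The lists were not tested as sets. The summed level of these lists in each group could not be formed from 1 or 2 named members, and the part of blood content in the lower values of the 4 genes was not tested.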

How the data were processed

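The authors deposited 1 table of log2 signals for 41345 features on 6 arrays, made by whole-transcript biotin labelling of 300 ng of RNA per the labels' protocols. Partek is the one tool in the submitters' processing notes, without a version; how background was corrected, how arrays were normalized and which genome build was used is not given in the sources used here. For the log base, the values were set against the linear ratio in the authors' deposited list: over its 470 features, the difference of group means equalled log2 of that ratio within 1.81e-05. Apart from this check, symbols, accessions and annotation text alone were used from the list, whose other columns are not used here.

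Values were used as deposited. limma 3.58.1 (R 4.3.3; lmFit and eBayes, no filter or covariate) was fitted to all features and tested on simulated data. Likeness is Pearson's r of deviations from group means (Python 3.11.15). The named genes are the 4 members, the 3 named features most like each, and list genes with a named feature; Hbb-b2 enters through its accession. Members and lists were chosen with earlier results of these data known. The labels do not say that each array is a separate mouse, so the error may be technical, and 6 arrays limit the precision. Figures were drawn with matplotlib 3.10.9. Alternatives were quantile normalization, median centring, array weights, filters on level, moderation and leaving out each array.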

Additional observations from a re-analysis of the deposited data

How the results depend on the processing

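Under quantile normalization, median centring, array weights and leaving out each array, all 36 differences of the 4 genes were negative and within 1 SD of the value reported. Without 1 array the sign cannot change where groups do not overlap. With 3 arrays per group, leaving out 1 also cannot move the difference by as much as 1 SD within groups. For those settings neither outcome is a check. Leaving out 1 array gave -1.08 to -0.64 for Alas2, -0.99 to -0.52 for Hbb-bt, -0.85 to -0.57 for Ppbp and -0.96 to -0.62 for Ms4a4a. Hbb-bt was under 1.5-fold without fasted replicate 3 (-0.53) or refed replicate 9 (-0.52), as was Ppbp without fasted replicate 1 (-0.57). After quantile normalization 3 of the 4 genes kept separate groups. No feature passed limma at an adjusted p under 0.05 in any setting run. Features at an unadjusted p under 0.05 numbered 1636 to 2614 without 1 array and 970 above the median level, where fewer were tested. Features with separate groups numbered 7054 to 9366 without 1 array, where 3 against 2 overlap less often by construction, and 1922 above the median level. Without 1 array, r of deviations ranged from 0.983 to 0.9999 for Alas2 and Hbb-bt, 0.557 to 0.910 for Alas2 and Ppbp, -0.532 to 0.963 for Alas2 and Ms4a4a, 0.551 to 0.895 for Hbb-bt and Ppbp, -0.630 to 0.954 for Hbb-bt and Ms4a4a, and -0.290 to 0.707 for Ppbp and Ms4a4a. The cause was not tested. Leaving out arrays for the features most like each gene was chosen after seeing the data. No paired analysis was possible because fasted and refed arrays have no replicate number in common.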

Other observations

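Further named features of the list carry symbols of immune genes that are in none of the fixed lists; they were chosen after their values were seen. Gzmf, a granzyme, was 1.77-fold lower in refed muscle and Klra3, a receptor of the Ly49 family of NK cells, 1.56-fold lower. Igkv4-56, an immunoglobulin kappa variable segment, was 1.58-fold lower and C1s2, related to a protease of complement, 1.54-fold lower. The T cell receptor segments went both ways: Trav16d-dv11 was 1.92-fold lower, while Trav6n-6 and Trbv10 were 1.70-fold and 1.53-fold higher. Oas1d, of the oligoadenylate synthetase family, was 1.71-fold higher. Of these 8 features Igkv4-56 was the brightest, above at most 41.1% of the features of an array, and for Trav6n-6 the groups overlapped.

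Mir511, a microRNA gene that the naming rule set aside, had r = 0.947 to Alas2, 0.905 to Hbb-bt, 0.949 to Ppbp and 0.102 to Ms4a4a over the within-group deviations of the 6 arrays. For Mir511 the features with a higher r were not counted, and r was not followed with arrays left out. Its log2 signal was 5.06 ± 0.33 in fasted and 4.29 ± 0.22 in refed muscle (SD, n = 3), 1.70-fold lower in refed muscle.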
